A study of Mus musculus with 15 samples.

Results

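Polypoid colon tissue was set against inflamed colon mucosa within the mice that received 5-aminosalicylic acid (5-ASA, or mesalamine, an anti-inflammatory drug used in ulcerative colitis). The samples were chosen by their labels alone, which gave 4 arrays of polypoid tissue from 2 mice and 3 arrays of inflamed tissue from 2 other mice, together 7 of the 15 arrays and 4 of the 8 mice in the series. The study asked how 5-ASA affects colon carcinogenesis that follows colitis. Every mouse was a female Swiss Webster animal, a stock rather than an inbred strain, 7 weeks old at the start. Each received azoxymethane (AOM), a colon carcinogen, by intraperitoneal injection at 7.4 mg/kg, and from 9 weeks of age 4% dextran sulfate sodium (DSS), which injures the colon lining, in 3 cycles of 7 days on DSS and 21 days on water. Colons were taken at 18 weeks of age.

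The 4 groups were polypoid and inflamed tissue of mice given 5-ASA at 75 mg/kg (labelled treated), and polypoid and inflamed tissue of untreated mice, with 2 mice in each group. The design text describes the untreated mice as given vehicle, while their sample labels give no treatment. AOM and DSS were shared by all 4 groups, and no group came from an uninjured colon. Areas were taken by laser capture microdissection from frozen sections 5 µm thick, and their RNA went through 2 rounds of amplification before labelling. The labels do not say how many areas or polyps of a mouse were joined in a sample. Each array carried a sample together with reference RNA pooled from mouse sources, labelled with different dyes. Values are therefore ratios of sample to reference on the log2 scale, and a difference of 1 on this scale is a 2-fold change.

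Polyps in this model are known for mutations that stabilise beta-catenin, the effector of the Wnt pathway. Wnt ligands bind Frizzled receptors, beta-catenin then joins TCF and LEF factors on DNA, and among the genes switched on are inhibitors that feed back on the pathway. In the normal colon Wnt activity is high in the stem cells of the crypt base and low in the absorptive colonocytes of the surface, which carry out ion transport, water uptake and fatty acid oxidation. Inflamed mucosa after DSS holds epithelium together with infiltrating immune cells. In bulk tissue such as a captured area, fewer cells of a type and less RNA per cell cannot be told apart.

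On the 7 arrays of the 5-ASA mice, 57.3% to 90.8% of spots were well above background in the sample channel, with a median sample intensity of 163.1 to 211.6 scanner units over a median background of 41 to 60. The lowest share came from inflamed replicate 2, a mouse with a single Cy3 array and no dye swap. The 2 mice of a tissue correlated across genes (which are not independent of each other) at r = 0.916 (polypoid) and 0.943 (inflamed), and mice of different tissues at 0.746 to 0.776. The first principal component of the 4 mice held 75% of the variance and placed the polypoid mice at 48.8 and 51.6 and the inflamed mice at -59.9 and -40.5. All 9 measured epithelial markers were well above background on every array of both tissues, and their mean level was 2.87 and 2.64 in the polypoid mice, against 3.3 and 3.36 in the inflamed mice. The 4 mice were scanned in 4 different sessions, so no value within a session exists in this arm.

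In polypoid tissue of 5-ASA mice 17 of 26 Wnt target genes, 9 of 21 stem cell genes and 2 of 8 neutrophil-attracting chemokine genes rose relative to inflamed tissue. In the other direction, 8 of 35 colonocyte metabolism genes and 4 of 27 surface transporter genes fell. The lists were written with earlier results of these data known. Their counts and medians, here and below, describe the lists and are not independent of these data. Of 21301 genes tested with limma (adjusted p under 0.05 after Benjamini-Hochberg, 2 mice against 2), 651 passed, which is 3.06% of the genes. Of these, 434 (2.04%) were higher and 217 (1.02%) were lower in polypoid tissue. The median difference over all genes was 0 and the median size of a difference was 0.23, against a median size of 1.57 among the genes that passed. A change of 2-fold or more was found for 582 of them, and 144 higher and 70 lower genes differed 4-fold or more. For each of the 651 genes both polypoid mice lay on the same side of both inflamed mice, which was also so for 55.1% of all genes (26.7% higher and 28.4% lower). All 7 arrays were well above background for 563 of the 651 genes, and 10 of them were above background on no inflamed array.

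The calls rested on all 4 mice. Nearly all were lost when 1 of the 4 was left out, which leaves 1 mouse in a tissue. The median size of the 651 differences was then 1.5 without inflamed replicate 1 and 1.67 without inflamed replicate 2. It was 1.59 without polypoid replicate 1 and 1.56 without polypoid replicate 2. Their signs could hardly change in these fits, since all 651 were genes without overlap between the tissues. With scan session as a fixed block, a fit that can separate session from tissue only through the untreated mice and had 1 residual degree of freedom, 0 genes passed (the smallest adjusted p was 0.43, and 2387 genes had an unadjusted p under 0.05). Inflamed replicate 2 was the only array of its session, so it added nothing to the difference in that fit. The inflamed side there rested on inflamed replicate 1, also for the list medians given below with session as a fixed block. In that fit none of the 651 changed sign and their median size was 1.69. With session as a random block 695 genes passed. With Agilent's processed signals in place of normexp, 8 of the 83 genes named below that passed lost their call and 12 named genes gained one. With the deposited value table, 21 lost it, with limma adjusted p from 0.051 (Lgr5 and Mcm4) to 0.1 (Smoc2). The falling ones were Abat, Acsm3, Car4, Ccnk, Cdx1, Cox7a2, Cyp2c40, Hao2, Maoa, Mzb1 and Oasl1. The rising ones were Angpt2, Apcdd1, Cldn4, Il1rl1, Inhba, Lgr5, Mcm4, Prom2, Smoc2 and Tcf7. Of the 83 genes, 29 had a further probe on the array, and for 19 of these a further probe showed under a 2-fold change in the same direction or the opposite sign, a limit set after the values were seen. The p-values set differences against the spread of mice within all 4 groups, untreated mice included, and nothing says how much of that spread is technical.

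**Figure D1:**
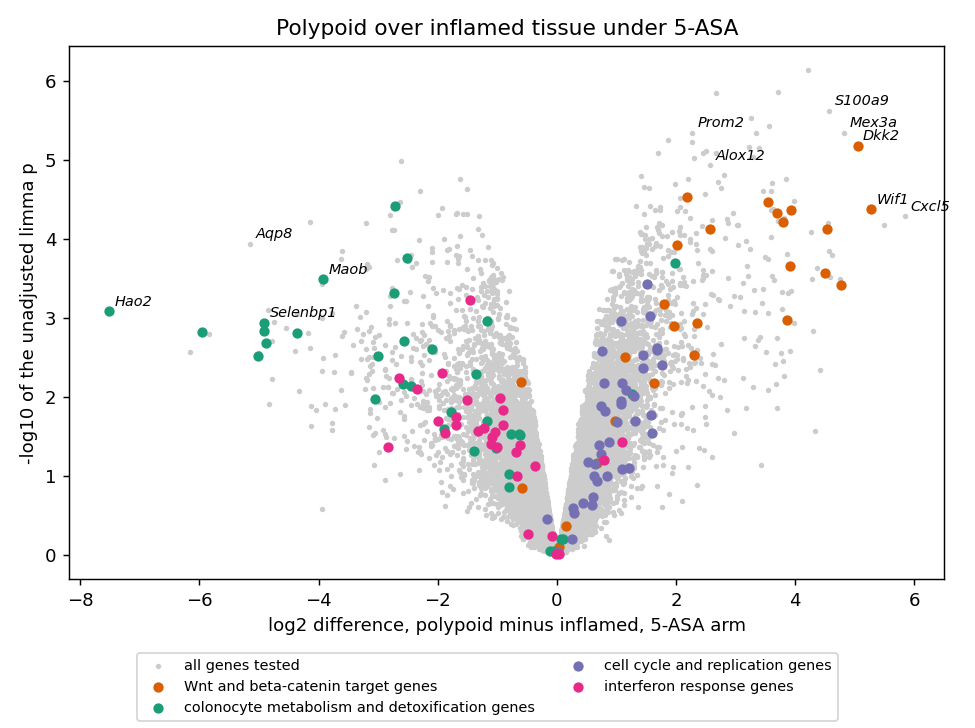
Difference between polypoid and inflamed tissue under 5-ASA (x axis, log2) against -log10 of the unadjusted limma p (y axis) for 21301 genes, with members of 4 gene lists coloured. Wnt target genes reach 5.28 on the right and colonocyte metabolism genes reach -7.52 on the left, while cell cycle genes gather to the right of 0 and interferon response genes to the left.

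The 15 genes with the largest rise held 2 chemokines, 7 genes of the Wnt pathway or its modulators, 2 calprotectin subunits and an alarmin. Cxcl5, a chemokine that attracts neutrophils, had values of 6.15 and 4.62 in the polypoid mice, against -1.1 and 0.19 in the inflamed mice. It rose 57.3-fold (log2 difference 5.84 ± 0.59 SE, limma adjusted p = 0.016, n = 2 each). Both polypoid mice were far above both inflamed mice, and polypoid replicate 1 was the higher of its pair. Cfi, the protease that inactivates complement fragments, stood at 6.35 and 4.81 in polypoid tissue, against -0.02 and 0.19 in inflamed tissue, a 45.1-fold rise (5.5 ± 0.58, limma adjusted p = 0.017). As for Cxcl5, replicate 1 was the higher polypoid mouse. Mex3a, an RNA-binding protein of intestinal progenitor cells, read 0.61 and 1.2 in polypoid mice and -4.34 and -3.49 in inflamed mice, a 28.2-fold rise (4.82 ± 0.32, limma adjusted p = 0.0097). Its values were below the reference RNA in inflamed tissue and slightly above it in polypoid tissue. The myosin light chain Myl1 rose 19.7-fold, with 5.39 and 3.82 in polypoid mice, against 0.78 and -0.18 in inflamed mice (limma adjusted p = 0.049).

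Most of the 15 genes with the largest fall encode enzymes or transport proteins. Hao2, a peroxisomal hydroxyacid oxidase, was at 0.62 and 0.27 in the polypoid mice, against 8.37 and 7.57 in the inflamed mice, and fell 184-fold (-7.52 ± 1.24, limma adjusted p = 0.039). Both inflamed mice were far above the reference RNA, and the polypoid mice were near its level. Abat, the enzyme that breaks down GABA, fell 28.8-fold, with -0.34 and 0 in polypoid mice, against 5.1 and 4.25 in inflamed mice (-4.85 ± 0.79, limma adjusted p = 0.039), although its other probe differed by -0.02. The kallikrein protease Klk4 fell 17.7-fold (0.15 and 0.4 in polypoid tissue, 4.81 and 4.02 in inflamed tissue, limma adjusted p = 0.017). Nlrp6, an inflammasome sensor of colon epithelium, fell 12.1-fold, with polypoid mice at 0.36 and 0.47 and inflamed mice at 4.21 and 3.82 (limma adjusted p = 0.021). In each of these genes the polypoid pair lay close together and well below the inflamed pair. Syncollin (Sycn), known as a secretory granule protein of the pancreas, fell 15-fold (0.76 and 0.52 in polypoid tissue, 3.76 and 5.34 in inflamed tissue, limma adjusted p = 0.027) and was saturated on 2 of 3 inflamed arrays, which understates its fold. Cyclin K (Ccnk) fell 10.2-fold (limma adjusted p = 0.047), with its other probe at -0.09.

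**Figure D2:**
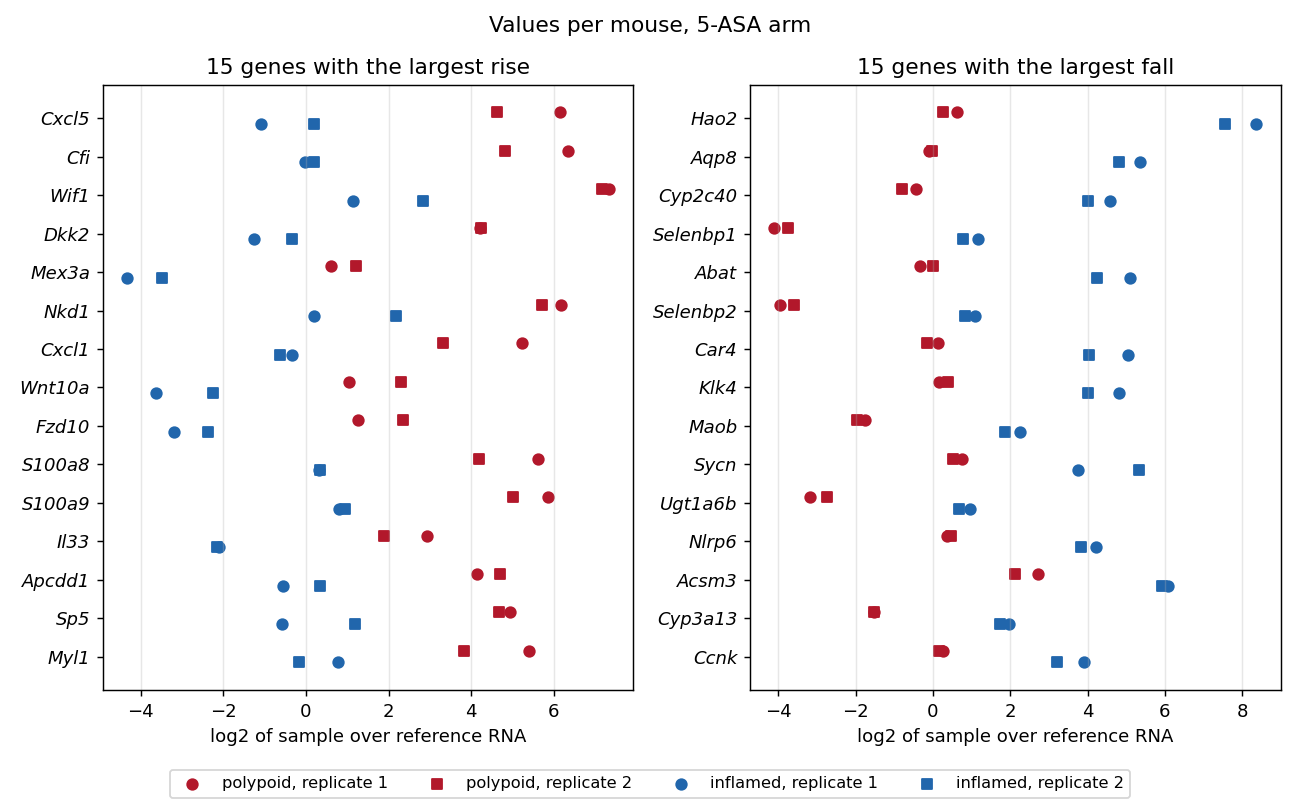
Values per mouse (x axis, log2 of sample over reference RNA) for the 15 genes with the largest rise (left) and the 15 with the largest fall (right) under 5-ASA, polypoid mice in red and inflamed mice in blue. The 2 mice of a tissue lie side by side and the tissues do not overlap, with Cxcl5 at 6.15 and 4.62 in polypoid mice against -1.1 and 0.19 in inflamed mice.

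Of 26 measured target genes of Wnt and beta-catenin, 17 rose and none fell in limma, with a median difference of 2.32, against 0 over all genes. The secreted Wnt-binding inhibitor Wif1 was at 7.34 and 7.18 in polypoid mice, against 1.13 and 2.84 in inflamed mice, and rose 38.7-fold (5.28 ± 0.51, limma adjusted p = 0.016). Dkk2, a secreted modulator of Wnt co-receptors, had 4.22 and 4.25 in polypoid tissue, against -1.27 and -0.34 in inflamed tissue, a 33.0-fold rise (5.05 ± 0.36, limma adjusted p = 0.0097), with 1 of 3 inflamed arrays well above background. The polypoid mice nearly coincided for both genes, while the inflamed mice lay farther apart, with replicate 2 the higher. Nkd1, an intracellular inhibitor that binds Dishevelled, rose 27.3-fold (6.17 and 5.72 against 0.19 and 2.17, limma adjusted p = 0.029). Apcdd1, a membrane inhibitor of Wnt signalling, rose 23.0-fold (4.15 and 4.69 against -0.56 and 0.35, limma adjusted p = 0.018), with 1 of 4 polypoid arrays saturated and its other probe at 0.2. In inflamed replicate 2 the values of Wif1, Dkk2, Nkd1 and Apcdd1 were all above those of inflamed replicate 1.

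Several feedback regulators of the pathway rose. Axin2, a scaffold of the complex that degrades beta-catenin, rose 15.2-fold (4.75 and 4.93 in polypoid mice, 0.57 and 1.25 in inflamed mice, limma adjusted p = 0.016), and the ubiquitin ligase Znrf3, which removes Frizzled receptors, rose 4.56-fold (0.87 and 1.22 against -1.29 and -0.99, limma adjusted p = 0.016). Notum, the deacylase that inactivates Wnt ligands, rose 12.9-fold with 1 of 3 inflamed arrays above background, and did not pass with Agilent's processed signals. Of 16 measured feedback inhibitors and secreted modulators, 9 rose and 1 fell, with a median of 1.98. The member that fell was Sfrp1, a secreted Frizzled-related Wnt antagonist, at -2.11 and -1.61 in polypoid mice and 0.53 and 0.87 in inflamed mice (-2.57 ± 0.4, limma adjusted p = 0.034). Its direction was opposite to that of the secreted inhibitors Wif1, Notum and Dkk2 in the same mice.

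Among the nuclear factors, Sp5, a zinc finger factor switched on directly by beta-catenin, was at 4.94 and 4.68 in polypoid mice, against -0.57 and 1.18 in inflamed mice (22.6-fold, 4.5 ± 0.6, limma adjusted p = 0.026). The partner of beta-catenin Lef1 rose 5.92-fold (0.06 and -0.54 against -2.73 and -2.88, limma adjusted p = 0.018, other probe 0.52) and its relative Tcf7 rose 5.08-fold (limma adjusted p = 0.045). Prox1, a homeobox factor known as a Wnt target in colon tumours, rose 13.9-fold (3.3 and 2.94 against -1.19 and -0.15, limma adjusted p = 0.017). The crypt factor Sox9 rose 4.03-fold (2.46 and 2.33 against 0.34 and 0.43, limma adjusted p = 0.02). A further probe of Tcf7, Prox1, Sox9 and the stem cell surface gene Cd44 had the opposite sign. The median of the Wnt target list was 3.04 with scan session as a fixed block and 1.47 when the probes of a gene were averaged in place of the brightest.

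The core motif of TCF and LEF factors, CTTTGAT (or ATCAAAG on the other strand), was searched in the 250 bases upstream of the start of each gene in RefSeq promoter sequences of build GRCm38.p6. It was present for 3.72% of 27025 genes and for 3 of the 17 Wnt targets that had a sequence (Sp5, Tnfrsf19 and Mmp7). All 3 rose, but so did 12 of the 17, most of them without the motif. A match describes the letters of the window and not a site in use. The Sp5 window is shown because Sp5 was among the genes with the largest rise, with the motif in capitals. It lies at chr2:70474673-70474922, plus strand, GRCm38.p6.
Sp5: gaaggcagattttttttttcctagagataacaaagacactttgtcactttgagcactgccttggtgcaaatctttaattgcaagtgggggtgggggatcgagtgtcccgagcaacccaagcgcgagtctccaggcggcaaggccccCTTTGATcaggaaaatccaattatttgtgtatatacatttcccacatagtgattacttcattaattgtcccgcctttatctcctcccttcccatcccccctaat

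Of 21 measured Wnt ligands and Frizzled receptors, 3 rose and none fell, with a median of 0.2 (-0.01 without polypoid replicate 2 and 0.11 without inflamed replicate 1). Wnt10a, a ligand, had 1.04 and 2.31 in polypoid mice, against -3.64 and -2.26 in inflamed mice (24.7-fold, 4.62 ± 0.56, limma adjusted p = 0.022). The receptor Fzd10 had 1.25 and 2.34 in polypoid mice, against -3.2 and -2.38 in inflamed mice (24.0-fold, 4.59 ± 0.63, limma adjusted p = 0.027), with its other probe at 0.37. In both genes replicate 2 was the higher mouse in each tissue, and the tissues did not overlap. The ligand Wnt6 rose 2.77-fold (1.43 and 1.59 against 0.02 and 0.06, limma adjusted p = 0.014). The receptor Fzd6 had a difference of 0.66 ± 0.13 and did not pass (limma adjusted p = 0.057).

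Of 21 measured intestinal stem cell genes, 9 rose and none fell, with a median of 0.98. Tnfrsf19 (Troy), a receptor of crypt base stem cells, was at 1.55 and 1.83 in polypoid mice, against -2.71 and -1.75 in inflamed mice, and rose 15.1-fold (3.92 ± 0.51, limma adjusted p = 0.025), with its other probe at 0.24. Lgr5, the R-spondin receptor that marks crypt base stem cells, rose 14.5-fold (3.34 and 3.12 against -1.49 and 0.23, limma adjusted p = 0.043), and the matrix protein Smoc2 rose 10.8-fold (2.62 and 3.43 against -0.85 and 0.02, limma adjusted p = 0.035, other probe 0.83). The 3 genes were at or below the reference level, or just above it, in inflamed mice and clearly above it in polypoid mice. With session as a fixed block the median of the stem cell list was 1.78. Of 22 genes of fetal-like and repairing epithelium, 3 rose and none fell, with a median of 0.66 (0.44 under a stricter filter on dim probes and 1.15 with session as a fixed block). They were Il33, the keratin Krt7 (3.9-fold, saturated on 2 of 4 polypoid arrays, limma adjusted p = 0.034) and the tight junction gene Cldn4 (2.38-fold, limma adjusted p = 0.045). Cldn4 did not pass with Agilent's processed signals (limma adjusted p = 0.18) or the deposited value table (limma adjusted p = 0.055). Spp1 (osteopontin) differed by 2.71 ± 0.65 and did not pass (limma adjusted p = 0.088).

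**Figure D3:**
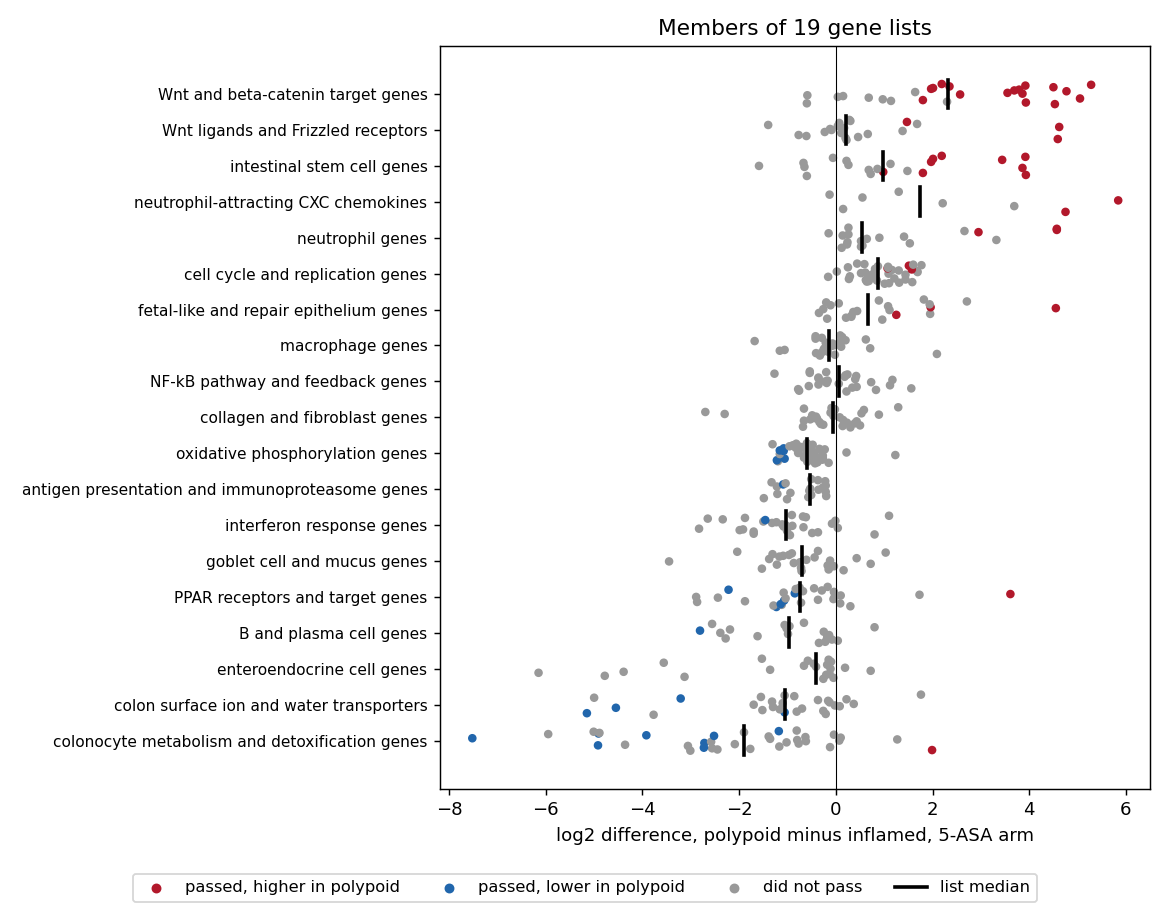
Differences between polypoid and inflamed tissue under 5-ASA (x axis, log2) for the measured members of 19 gene lists, red and blue where a gene passed and grey where it did not, with the list median as a bar. Medians run from 2.32 for Wnt targets to -1.9 for colonocyte metabolism genes, and several lists with no coloured point, such as macrophage and collagen genes, centre near 0.

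Several genes of the absorptive colon surface fell in polypoid tissue. Of 27 measured ion and water transporters, 4 fell and none rose, with a median of -1.06 (-0.64 without inflamed replicate 1). With Agilent's processed signals 8 fell and none rose. The water channel Aqp8 was at -0.09 and -0.03 in polypoid mice, against 5.36 and 4.81 in inflamed mice, and fell 35.5-fold (-5.15 ± 0.59, limma adjusted p = 0.02), with 1 of 3 inflamed arrays saturated. The membrane carbonic anhydrase Car4 was at 0.13 and -0.16, against 5.04 and 4.04 (23.5-fold lower, -4.55 ± 0.82, limma adjusted p = 0.047), and was above background on 3 of 4 polypoid arrays. For both genes the polypoid mice lay close together, near the reference level. The sulfate transporter Slc26a2 fell 9.25-fold (-0.17 and -0.67 against 2.85 and 2.73, limma adjusted p = 0.017) and the proton pump subunit Atp12a fell 2.09-fold (limma adjusted p = 0.036). Slc26a3, the chloride exchanger that defines surface colonocytes, had 0.06 and -0.04 in polypoid mice and 5.63 and 4.4 in inflamed mice, but did not pass (-5 ± 1.04, limma adjusted p = 0.065). With Agilent's processed signals it differed by -5.11 and passed (limma adjusted p = 0.021).

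Of 35 measured genes of colonocyte metabolism and detoxification, 8 fell and 1 rose, with a median of -1.9. With Agilent's processed signals 15 fell and 1 rose. The cytochrome P450 gene Cyp2d9 fell 6.58-fold (0.79 and 0.51 in polypoid mice, 3.45 and 3.29 in inflamed mice, limma adjusted p = 0.016), and Cyp2c40 fell 30.3-fold (-0.44 and -0.81 against 4.59 and 4, limma adjusted p = 0.049). Both belong to gene families with near-identical members, whose signals a probe may share. The monoamine oxidases Maoa and Maob fell 5.72-fold (0.19 and 0.03 against 2.61 and 2.65, limma adjusted p = 0.023) and 15.1-fold (-1.76 and -1.96 against 2.25 and 1.86, limma adjusted p = 0.027). Selenbp1, a methanethiol oxidase, fell 30.0-fold, with polypoid mice at -4.11 and -3.75 and inflamed mice at 1.16 and 0.79 (limma adjusted p = 0.044), and its near-identical relative Selenbp2 fell 26.7-fold. Each was saturated on 2 of 3 inflamed arrays, which understates the fold, and the 2 probes may share signal. Outside the list, the glucuronosyltransferase Ugt1a6b, whose locus shares exons with other Ugt1a genes, fell 13.7-fold (limma adjusted p = 0.04), the fatty acid activating enzyme Acsm3 fell 11.9-fold (limma adjusted p = 0.05 after rounding) and the cytochrome Cyp3a13 fell 10.3-fold (limma adjusted p = 0.037). The export pump Abcc2 was the member that rose (1.47 and 1.31 against -0.8 and -0.39, 3.97-fold, limma adjusted p = 0.023).

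None of the enteroendocrine and goblet cell genes passed, although several had large differences. With Agilent's processed signals 6 enteroendocrine genes and 2 goblet cell genes passed, all lower, among them Chgb, Insl5 and Gcg (limma adjusted p = 0.015, 0.021 and 0.017). Of 21 measured enteroendocrine genes none passed in limma, and 19 had a negative difference (median -0.41). The granule protein Chgb was at -0.1 and 0.61 in polypoid mice, against 5.33 and 4.73 in inflamed mice (-4.78 ± 0.93, limma adjusted p = 0.056), and the hormone Insl5 was at -0.07 and 0.1, against 3.9 and 4.91 (-4.39 ± 0.9, limma adjusted p = 0.063). Proglucagon (Gcg) was at -0.06 and 0.01, against 6.05 and 6.19 (-6.15 ± 1.27, limma adjusted p = 0.064), with its second probe of the opposite sign. The standard errors pool the spread of all 4 groups, and the untreated polypoid mice lay far apart for these 3 genes. They were at 4.81 and 1.84 for Chgb, 3.59 and 0.63 for Insl5 and 5.24 and 0.89 for Gcg. The mean over 6 enteroendocrine markers was 0.03 and 0.68 in polypoid mice, against 4.05 and 4.45 in inflamed mice. Of 26 measured goblet cell and mucus genes none passed, and the median was -0.71, with -0.33 without polypoid replicate 1 and -1.11 without polypoid replicate 2. The mucus protein gene Fcgbp was at 0.06 and 0.07, against 1.43 and 1.14 (-1.22 ± 0.23, limma adjusted p = 0.051), and the kallikrein Klk1 differed by -3.45 ± 0.8 (limma adjusted p = 0.081).

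Some neutrophil genes and some chemokines that attract these cells rose in polypoid tissue. Of 19 measured neutrophil genes, 3 rose and none fell, and 18 had a positive difference. In the main fit the median was 0.55, with 0.3 without polypoid replicate 1 and 0.9 without polypoid replicate 2. It was 1.41 with Agilent's processed signals, under which 6 rose. The calprotectin subunits S100a8 and S100a9 each rose 23.7-fold. S100a9 was at 5.87 and 5.01 in polypoid mice, against 0.8 and 0.94 in inflamed mice (4.57 ± 0.27, limma adjusted p = 0.0097), and S100a8 was at 5.63 and 4.18, against 0.32 and 0.35 (4.57 ± 0.55, limma adjusted p = 0.021), with 2 of 3 inflamed arrays above background. In both subunits the inflamed mice nearly coincided and polypoid replicate 1 exceeded replicate 2. Padi4, the enzyme that citrullinates histones in neutrophils, rose 7.74-fold (2.7 and 2.36 against -0.76 and -0.08, limma adjusted p = 0.016). Lipocalin 2 (Lcn2) had 2.88 and 1.05, against -1.94 and -0.76, and did not pass (3.32 ± 0.66, limma adjusted p = 0.059), with 1 of 3 inflamed arrays above background. With Agilent's processed signals Lcn2 differed by 5.46 and passed (limma adjusted p = 0.0078).

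Of 8 measured CXC chemokines and receptor genes for neutrophils, 2 rose, Cxcl5 and Cxcl1, and the median was 1.75. Cxcl1 was at 5.23 and 3.31 in polypoid mice, against -0.34 and -0.63 in inflamed mice (27.0-fold, 4.75 ± 0.66, limma adjusted p = 0.027). Cxcl2 had 5.52 and 1.88 in polypoid mice, against 0.14 and -0.13 in inflamed mice, and did not pass (3.69 ± 1.08, limma adjusted p = 0.13), but differed by 5.76 and passed with Agilent's processed signals (limma adjusted p = 0.0079). Cxcl3 had 3.57 and 0.39 in polypoid mice, against -0.22 and -0.23 (limma adjusted p = 0.33). For all 4 chemokines polypoid replicate 1 was above replicate 2, most of all for Cxcl2. The median of the list was 0.43 without polypoid replicate 1, 3.06 without replicate 2 and 0.72 with session as a fixed block. Of the 6 measured neutrophil markers, all were above background on every polypoid array and 1 on every inflamed array. The filter on dim probes favours such a count, since a marker bright in polypoid tissue alone was kept through that tissue. Their mean was 3.12 and 2.09 in polypoid mice, against 0.21 and 0.24 in inflamed mice. Among them the receptor Cxcr2 was above background on none of the 3 inflamed arrays, and the part of neutrophils in the chemokine values was not tested.

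A consensus form of the kappa B motif bound by NF-kB, searched on both strands with overlapping matches allowed, was present upstream of 0.333% of the 27025 genes and of 3 of the 7 listed CXC genes with a sequence, which were Cxcl1, Cxcl2 and Cxcl3. The Cxcl1 window is shown because Cxcl1 rose and holds the motif, with the matched letters, 2 overlapping matches, in capitals. A match again describes letters and not a site in use. It lies at chr5:90890995-90891244, plus strand, GRCm38.p6.
Cxcl1: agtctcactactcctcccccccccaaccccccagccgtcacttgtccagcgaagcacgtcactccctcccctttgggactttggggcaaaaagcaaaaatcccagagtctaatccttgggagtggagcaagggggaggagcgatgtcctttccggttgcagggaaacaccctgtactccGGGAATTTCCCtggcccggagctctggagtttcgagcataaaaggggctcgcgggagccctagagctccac

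Other inflammatory genes moved in part. Of 23 measured genes of the interleukin 1 family and inflammatory cytokines, 2 rose, with a median of 0.44 (0.16 without polypoid replicate 1). They form a ligand and receptor pair: Il33, an alarmin released by damaged epithelium and stroma, was at 2.93 and 1.89 in polypoid mice, against -2.11 and -2.15 in inflamed mice (23.4-fold, 4.55 ± 0.47, limma adjusted p = 0.017), and its receptor Il1rl1 (ST2) was at 1.56 and -0.37, against -2.99 and -2.92 (11.7-fold, 3.55 ± 0.59, limma adjusted p = 0.04, other probes 0.45 to 0.96). For both the inflamed mice coincided and polypoid replicate 1 was the higher. Il1b had 7.21 and 5.17, against 2.18 and 3.17, and did not pass (3.51 ± 0.73, limma adjusted p = 0.064). Of 20 CC and other chemokines, the monocyte chemokine Ccl7 rose (2.8-fold, 2 of 3 inflamed arrays above background, limma adjusted p = 0.017) and none fell. With Agilent's processed signals Ccl7 did not pass (limma adjusted p = 0.052), and 1 gene of this list fell.

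Pathways on which 5-ASA is known to act were examined for the difference between the tissues. Of 27 measured NF-kB pathway genes none passed in limma, and the median was 0.06, with Rel at 1.17 ± 0.27 and the inhibitor Tnip1 at -1.27 ± 0.3 (both limma adjusted p = 0.081). With Agilent's processed signals 1 gene of the list passed, Rel, which differed by 2.4 (limma adjusted p = 0.04). Of 23 prostaglandin and lipoxygenase genes, 2 rose and 1 fell, with a median of 0.06. The lipoxygenase Alox12 was at 3.67 and 3.39 in polypoid mice, against 0.76 and 1.15 in inflamed mice (5.95-fold, limma adjusted p = 0.011), and Abcc4, a pump that exports prostaglandins, was at 1.08 and 1.84, against -1.62 and -1.51 (8.14-fold, limma adjusted p = 0.017). Slco2a1, the carrier that takes prostaglandins up, fell 4.91-fold, with -2.65 and -2.72 in polypoid mice and -0.39 and -0.39 in inflamed mice (limma adjusted p = 0.014). The other probe of Abcc4 differed by 0.24 and that of Slco2a1 by -0.14. Ptgs2, which encodes the inducible cyclooxygenase, was at 2.45 and -1.98 in the polypoid mice, the widest gap between these 2 mice among the genes above background on all 7 arrays, against -1.37 and -1.69 in inflamed mice (1.77 ± 1.38, limma adjusted p = 0.59).

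Of 29 measured PPAR receptors and target genes, 5 fell and 1 rose, with a median of -0.75. The coactivator Ppargc1b fell 4.67-fold (0.6 and 0.2 in polypoid mice, 2.65 and 2.59 in inflamed mice, limma adjusted p = 0.027), and Cpt1a, which brings fatty acids into mitochondria, fell 2.09-fold (-0.37 and -0.37 against 0.71 and 0.69, limma adjusted p = 0.027). The peroxisomal thiolase Acaa1a fell 2.34-fold (limma adjusted p = 0.031) and the lipid droplet gene Plin2 fell 1.8-fold (limma adjusted p = 0.035). Plin2 did not pass with Agilent's processed signals (limma adjusted p = 0.098). The pyruvate dehydrogenase kinase Pdk4 was the member that rose (-0.94 and -0.15 against -4.03 and -4.28, 12.2-fold, limma adjusted p = 0.027). Adipocyte genes, several of which are PPAR targets, separated the inflamed mice: the mean of 3 markers was -0.01 and 0 in polypoid mice, against 3 and 0.11 in inflamed mice, with Cfd at 7.48 in inflamed replicate 1. Their part in the PPAR list was not tested, and without inflamed replicate 1 its median was -0.5. Of 40 measured oxidative phosphorylation genes, 5 fell and none rose, and 38 had a negative difference (median -0.59). The complex I subunit Ndufs7 (-0.34 and -0.35 against 0.59 and 0.88) fell 2.11-fold and the complex IV subunit Cox7a2 (0.64 and 0.23 against 1.48 and 1.52) fell 2.09-fold, with 1 of 3 inflamed arrays saturated for Cox7a2 (limma adjusted p = 0.031 and 0.037). With Agilent's processed signals 1 gene of this list fell, and Ndufs7 did not pass (limma adjusted p = 0.059). With the deposited value table Cox7a2 did not pass (limma adjusted p = 0.063).

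Of 39 measured cell cycle and replication genes, 3 rose and none fell, while 38 had a positive difference and the median was 0.87 (0.57 without inflamed replicate 1). With Agilent's processed signals 10 genes of this list rose and none fell. Rrm1, the large subunit of ribonucleotide reductase, was at -0.16 and -0.52 in polypoid mice, against -2.1 and -1.6 in inflamed mice (2.86-fold, limma adjusted p = 0.029). The replicative helicase subunits Mcm4 (2.98-fold, limma adjusted p = 0.041) and Mcm6 (2.1-fold, limma adjusted p = 0.044) rose as well. In all 3 genes both polypoid mice were above both inflamed mice. Of 29 DNA repair and p53 pathway genes, Brca2, a repair protein of homologous recombination, rose 2.85-fold (-1.01 and -0.71 against -2.49 and -2.25, limma adjusted p = 0.036). Trp53 fell 8.86-fold by its brighter probe (-0.81 and -0.91 against 2.84 and 1.74, limma adjusted p = 0.025), and its other probe had the opposite sign.

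Most interferon and antigen presentation genes had negative differences, and few passed. Of 29 measured interferon response genes, 1 fell and none rose, a share of 3.45% that is close to the 3.06% of all genes. A negative difference was found for 26 of them, against 10795 of all 21301 genes. The list median was -1.04 (-0.66 without inflamed replicate 1). Oasl1, an interferon-induced regulator, was at 0.94 and 0.58 in polypoid mice, against 2.51 and 1.93 in inflamed mice (-1.46 ± 0.23, limma adjusted p = 0.033). With the deposited value table Oasl1 did not pass (limma adjusted p = 0.063). Ifit2 had 0.28 and 0.81, against 2.68 and 2.25, and did not pass (-1.92 ± 0.45, limma adjusted p = 0.081). Rsad2 (viperin) had 0.32 and 0.56, against 3.97 and 2.2, and did not pass either (-2.65 ± 0.64, limma adjusted p = 0.088). With Agilent's processed signals Rsad2 differed by -3.11 and passed (limma adjusted p = 0.031). The inflamed mice were the higher pair in each of the 3 genes, with replicate 1 the highest. All 20 measured antigen presentation and immunoproteasome genes had a negative difference (median -0.54), and 1 of them, the immunoproteasome subunit Psmb10, fell (1.39 and 1.41 against 2.3 and 2.68, 2.13-fold, limma adjusted p = 0.03). Psmb10 did not pass with Agilent's processed signals (limma adjusted p = 0.055), under which 2 genes of the list fell.

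Markers of other cell types were measured in the same samples. The mean of 7 B and plasma cell markers was 0.42 and 0.35 in polypoid mice, against 2.13 and 1.6 in inflamed mice, and Mzb1, a chaperone of plasma cells, fell 7-fold (0.18 and 0.28 against 3.4 and 2.68, limma adjusted p = 0.045). It was the member of 19 measured B and plasma cell genes that passed, and their median was -0.96 (-0.14 with session as a fixed block). With the deposited value table Mzb1 did not pass (limma adjusted p = 0.092). With Agilent's processed signals 4 genes of this list passed, all lower. For 8 macrophage markers the mean was 2.26 and 1.78 in polypoid mice, against 2.63 and 2.54 in inflamed mice, and 0 of 26 macrophage genes passed in limma. The 7 smooth muscle markers averaged 0.36 and 0.78, against 1.09 and 1.52, and 0 of 18 smooth muscle genes passed, with a list median of -0.45 that turned to 0.56 with session as a fixed block. None of the T cell, fibroblast, endothelial and mast cell markers passed in limma. Of 15 measured genes of a wider endothelial list, 2 rose and none fell (13.3%, against 3.06% of all genes), with a median of -0.06. They were Angpt2 and Prox1, the latter also named above as a Wnt target. Hdc, the enzyme that makes histamine, rose 4.19-fold (2.68 and 2.7 against 0.83 and 0.41, limma adjusted p = 0.018), while the other 9 mast cell genes did not pass.

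**Figure D4:**
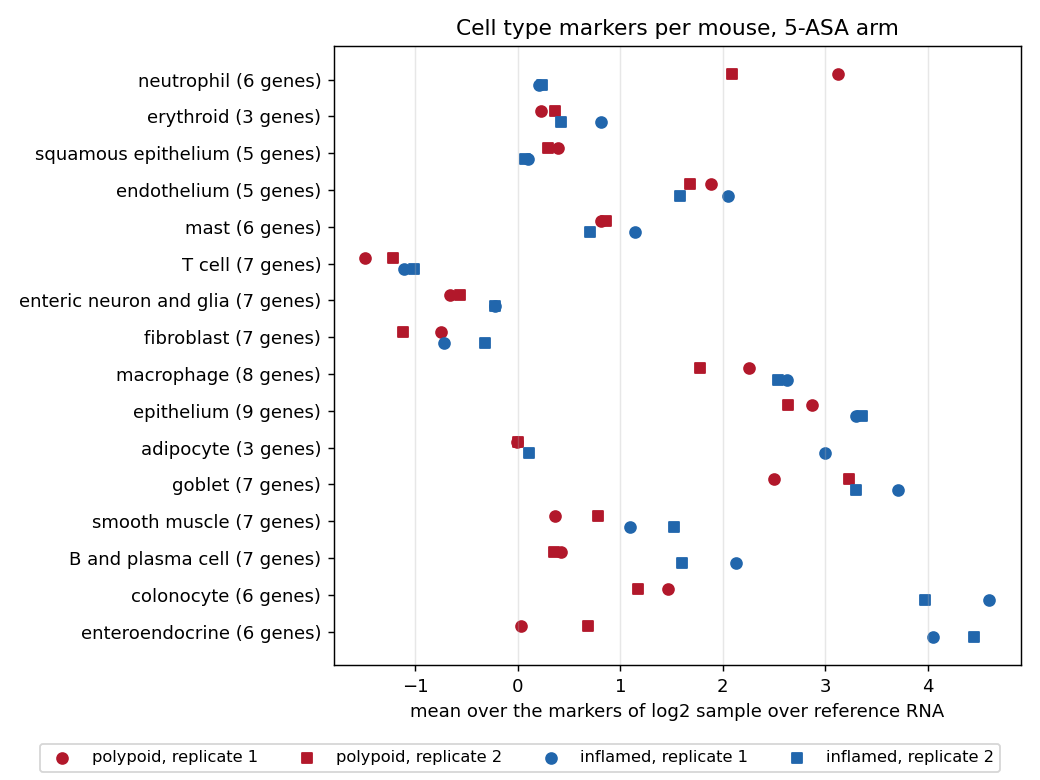
Mean level of the measured markers of 16 cell types (x axis, log2 of sample over reference RNA) in each mouse given 5-ASA, polypoid mice in red and inflamed mice in blue. Neutrophil markers lie at 3.12 and 2.09 in polypoid mice against 0.21 and 0.24 in inflamed mice, enteroendocrine and colonocyte markers lie far higher in inflamed mice, and adipocyte markers are high in 1 inflamed mouse.

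The same contrast in untreated mice used 4 other mice, so the arms share no animal, although the fit shared its estimate of spread. In the untreated arm 35 genes passed (0.164% of 21301), 34 higher and 1 (0.00469%) lower. Of these, 34 also passed under 5-ASA, which is 97.1% of the untreated calls and 5.22% of the 651 calls under 5-ASA. Of the 651 genes, 628 (96.5%) had the same sign in untreated mice, against 66.7% of all genes, and 564 (86.6%) had no overlap between the untreated tissues in the same direction, against 31.7% of all genes, while 41.8% of all genes had no overlap there in either direction. The 434 higher genes had a median difference of 1.59 under 5-ASA and 0.85 in untreated mice, and the 217 lower genes had -1.52 under 5-ASA and -0.66 in untreated mice. These genes were selected on the 5-ASA arm, which favours larger values there.

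The test of the difference between the arms called 0 of 21301 genes in limma, with 1273 (5.98%) at an unadjusted p under 0.05 and a smallest adjusted p of 0.8. Nothing in the tissue difference can therefore be called particular to 5-ASA. The smallest p belonged to Xdh, xanthine dehydrogenase, which was at 0.01 and -0.75 in polypoid mice against 2.38 and 1.87 in inflamed mice under 5-ASA, and at 1.62 and 1.27 in polypoid mice against 0.19 and -0.12 in inflamed mice without drug (difference between arms -3.91 ± 0.44, limma adjusted p = 0.8). Within each arm the tissues did not overlap, and they stood in opposite order. E-cadherin (Cdh1) followed with -0.58 ± 0.17 under 5-ASA and 1.35 ± 0.17 in untreated mice. Prom2 (prominin 2), above background on none of the 3 inflamed arrays under 5-ASA, was at least 4.81-fold higher in polypoid tissue there (limma adjusted p = 0.0097) and differed by 0.73 ± 0.15 in untreated mice. Pex11a, which promotes division of peroxisomes, fell under 5-ASA (-1.51 ± 0.13, limma adjusted p = 0.014) and differed by -0.2 ± 0.13 in untreated mice.

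For some of the genes with the largest fall the polypoid samples of the 2 arms stood apart. Aqp8 was at -0.09 and -0.03 in treated polypoid mice and 4.69 and 2.74 in untreated polypoid mice, with 5.36 and 4.81 in treated inflamed and 5.37 and 5.12 in untreated inflamed mice (difference between arms -3.62 ± 0.84, limma adjusted p = 0.8). Sycn was at 0.76 and 0.52 in treated polypoid mice and 4.63 and 3.79 in untreated polypoid mice, while the inflamed mice lay between 3.76 and 5.34 under 5-ASA and at 4.51 and 4.93 without drug (limma adjusted p = 0.8). For both genes the treated polypoid mice were below every other mouse, and the difference between the arms did not pass the test. In other such genes only untreated polypoid replicate 1 stood apart. Cyp3a13 was at 0.09 and -1.7 in untreated polypoid mice, against -1.52 and -1.53 in treated ones. Selenbp1 was at -0.47 and -3.32 in untreated polypoid mice, against -4.11 and -3.75 in treated ones. Among the genes that rose, Wif1 had 5.28 under 5-ASA and 5.41 without drug, Il33 had 4.55 and 4.59 and Cxcl5 had 5.84 and 5.66, while Wnt10a had 4.62 and 2.53 and Cxcl1 had 4.75 and 2.85. List medians were close between the arms for some lists and not for others. Wnt targets had 2.32 under 5-ASA and 2.29 without drug, stem cell genes 0.98 and 0.87, and neutrophil genes 0.55 and 0.58. Neutrophil-attracting chemokines had 1.75 and 1.48. Colonocyte metabolism genes had -1.9 and -0.76, and surface transporters -1.06 and -0.49. The interferon list had a median of -1.04 under 5-ASA and 0.09 without drug, and the cell cycle list 0.87 and 0.3.

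**Figure D5:**
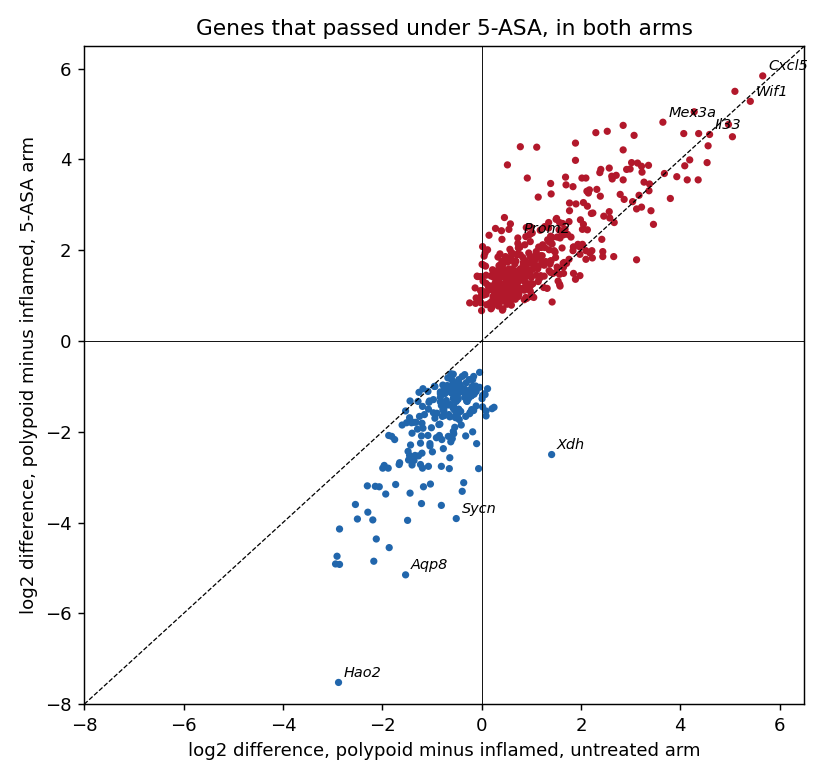
Difference between polypoid and inflamed tissue under 5-ASA (y axis, log2) against the same difference in untreated mice (x axis, log2) for the 651 genes that passed under 5-ASA, red where higher and blue where lower, with the dashed line of equal values. Of these genes 628 lie in the quadrants of equal sign, most of them farther from 0 on the 5-ASA axis, on which they were selected, and Xdh stands alone at -2.5 under 5-ASA and 1.41 in untreated mice.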

How the data were processed

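RNA of laser-captured colon areas was hybridised to 2-colour Agilent arrays against a universal mouse reference, per the labels. The authors deposited scanner output of Agilent Feature Extraction 9.1.1.1 with an intensity per spot and channel and a log10 ratio, per the file headers. They also deposited a table of log2 ratios with unstated processing. Its values had r of at least 0.996 with the log2 ratios normalised here as described next. Mean intensities were background-corrected with normexp (offset 50, which shrinks the folds of dim probes) and loess-normalised within arrays (R 4.3.3, limma 3.58.1). Control spots were left out, dye swaps were turned to sample over reference, the arrays of a mouse were joined with a dye term, and the brightest probe stood for a gene. Of 41174 probes, 22864 were named by accession and 10230 by gene name, and 8080 kept the array's name. Precision is limited by the number of arrays.

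Limma was fitted over 4 groups of 2 mice (4 residual degrees of freedom) with Benjamini-Hochberg adjustment over 21301 genes. Members and gene lists were chosen with earlier results of these data known. Genes to name were taken by rule: the 15 largest rises and 15 largest falls that passed without overlap between the tissues (named genes only, no clone or accession names), the 4 members of each list with the smallest p (any member of a list of at most 12), the 10 smallest p for the difference between arms, and the 4 genes farthest apart between replicates in each direction and tissue. Named outside that rule, after values were seen, were Cd44, Lef1, Lgr5, Notum, Plin2, Sfrp1, Slc26a3, Smoc2 and Tcf7. Replicate numbers were checked as pairs: the correlation of deviations was 0.077 between the tissues of the 5-ASA arm and 0.034 to 0.363 over the 6 pairs of groups. It was not over 0.1 in every pair, so the numbers were not taken to pair mice. In simulated data, 200 changed genes of 21299, 7.2% of the 2-fold and 63% of the 4-fold ones passed. Alternatives covered background correction, normalisation, filters, probe choice, dye, session, replicate block, shrinkage and each mouse left out. The result of 1 gene is not reported here.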

Additional observations from a re-analysis of the deposited data

How the results depend on the processing

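The number of genes that passed between polypoid and inflamed tissue under 5-ASA, 651, moved by more than 1.5 times with Agilent's processed signals (1088), with the deposited value table (419), with the 5-ASA arm fitted alone (1177) and with scan session as a fixed block (0). It was 1088 with the replicate block, of which 638 were among the 651, although the numbers were not taken to pair mice. With single mice left out it ran from 0 (without treated inflamed replicate 1) to 891 (without untreated polypoid replicate 2). Of the 651, 3 changed sign under the stricter filter on dim probes and 2 with the mean of a gene's probes, and none under the other 19 settings. Many of these settings could hardly change a sign. The 5-ASA arm alone, the replicate block and the changed shrinkage kept the difference itself. Leaving out an untreated mouse moved it only through the dye term. Leaving out a treated mouse can hardly reverse genes chosen without overlap between the tissues. The difference between the arms called 0 genes in every setting run. Ptgs2 and Ccl20, which did not pass, depended on polypoid replicate 1: without it they were -0.43 and -0.35, and without polypoid replicate 2 they were 3.98 and 2.42. The cause of these changes was not tested. Slide as a block could not be run, since each slide held 1 array. Dim and saturated probes limit folds in the genes named with such arrays, and 2 mice a group limit every test.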

Other observations

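Single genes of other lists passed between polypoid and inflamed tissue under 5-ASA, where 3.06% of all genes passed. Among 13 measured Paneth-type antimicrobial genes 1 passed, the protease Mmp7, which rose 11.7-fold (3.88 and 4.3 in polypoid mice, 0.13 and 0.96 in inflamed mice, limma adjusted p = 0.016), and Defa23, one of a family of near-identical defensins, had 6.12 and 6.04 against -0.02 and 3.33 without passing (limma adjusted p = 0.08). Among 29 measured BMP and TGF-beta genes 2 passed, the activin subunits Inhba (4.36-fold, limma adjusted p = 0.044) and Inhbb (8.99-fold, limma adjusted p = 0.019, another probe opposite), which rose. The intestinal homeobox factor Cdx1 fell 2.87-fold (1.18 and 0.81 against 2.35 and 2.68, limma adjusted p = 0.029). Cdx1 did not pass with Agilent's processed signals (limma adjusted p = 0.18) or the deposited value table (limma adjusted p = 0.057). The clock output factor Dbp fell 2.5-fold and its opponent Nfil3 rose 2.13-fold (limma adjusted p = 0.018 and 0.028). Keratin 23 (Krt23) rose 7.5-fold (5.85 and 5.5 against 2.25 and 3.28, limma adjusted p = 0.037), but differed by 0.82 and did not pass with Agilent's processed signals (limma adjusted p = 0.23). The vessel gene Angpt2, an antagonist of Tie2, rose 10.1-fold (3.2 and 2.8 against -0.3 and -0.36, limma adjusted p = 0.04).

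Some genes separated mice of 1 tissue. The chemokine Ccl20 was at 5.73 and 2.99 and the gut hormone Pyy at 0.18 and 3.08 in the polypoid mice. In the inflamed mice the fat cell genes Car3 and Fabp4 were at 3.65 and 0.1 and at 5.16 and 1.91.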
